A study of Mus musculus with 6 samples.

Results

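Potassium channel genes were followed in mouse hearts with and without miR-27b after pressure overload. Genes were taken when their mouse symbol begins with Kcn and their level averaged 0.1 FPKM or more across all hearts, which gave 60 genes of the 17570 in the deposited files. A further 29 Kcn genes were listed with a lower mean and were left out. FPKM counts sequenced fragments scaled for transcript length and library size, so that levels of different genes can be set side by side.

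The hearts came from C57BL/6J mice operated on at 10 to 12 weeks of age by transverse aortic constriction (TAC), a band on the aorta that makes the left ventricle pump against a high pressure, and were collected 8 weeks later. WT/TAC are 3 wild-type hearts and KO/TAC are 3 hearts of mice homozygous for a deletion of 10 bases at the 3′ end of the miR-27b-3p sequence of Mir27b, made by TALEN injection into fertilized eggs and so not limited to heart muscle. Sham-operated hearts are not analysed here, so both groups carry the TAC stimulus and the question answered is which potassium channel genes differed between genotypes under load. The labels number the hearts but say nothing on litter or sex, and p-values measure only the spread between these samples.

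Potassium channels end the cardiac action potential and hold the resting potential. In mouse ventricle, Kv4 pores with their KChIP partner give the fast transient outward current, Kv1 and Kv2 pores the slower outward currents that follow, and strong inward rectifiers the current at rest. Atrial muscle has in addition G protein-gated inward rectifiers that open when the vagus nerve releases acetylcholine. Hypertrophied and failing hearts are known for lower levels of several of these channels.

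One library stands apart. In WT/TAC replicate 1 the atrial light chain Myl7 was at 8140 FPKM and the ventricular light chain Myl2 at 81.0 FPKM, whereas in the other hearts Myl7 ranged from 0.23 to 1135 FPKM and Myl2 from 9735 to 14329 FPKM. The label gives the tissue of all hearts only as heart. Myl7 was also at 1135 FPKM in WT/TAC replicate 3 and at 333 FPKM in KO/TAC replicate 2, and under 1 FPKM in the others. The summed level of 5 atrial markers, of which 0 rose and 1 fell by the limits given below, was 79791, 6239 and 8718 FPKM for WT/TAC and 806, 2048 and 84.0 FPKM for KO/TAC. Nppa, the 1 atrial marker that fell, made up most of each sum. Its level was 55795, 6236 and 5647 FPKM for WT/TAC and 803, 1114 and 79.4 FPKM for KO/TAC. Myl4, also on that list, was at 11725, 2.34 and 1522 FPKM for WT/TAC and 2.48, 472 and 3.42 FPKM for KO/TAC. The sum thus did not order the hearts as Myl7 and Myl4 did. The summed level of 4 ventricular markers was 270, 19768 and 16760 FPKM for WT/TAC and 21228 to 23122 FPKM for KO/TAC. Of these 4, 1 rose and 0 fell. The part of atrial tissue in the differences below was not tested, and values without WT/TAC replicate 1 are given beside many of the genes. The total FPKM of a library was 519562 to 553716. The number of reads is unknown, so no counting intervals are given.

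Levels spanned a wide range among the 60 genes. Only 3 were above 50 FPKM, 9 were between 10 and 50 FPKM, 16 between 1 and 10 FPKM, 6 between 0.5 and 1 FPKM and 26 below 0.5 FPKM. Kcnk3, a tandem-pore channel for background current (TASK-1), had the highest mean, with 127, 65.3 and 90.6 FPKM in WT/TAC replicates 1 to 3 and 103, 95.2 and 91.3 FPKM in KO/TAC replicates 1 to 3. Kcnj11, the pore of the ATP-sensitive channel, followed with 83.6, 65.7 and 85.0 FPKM in WT/TAC and 71.7, 86.9 and 72.7 FPKM in KO/TAC. The ranges of Kcnk3 and Kcnj11 overlapped, so their order is not beyond the spread between hearts. Next came Kcnip2, the KChIP partner of Kv4 pores, with a mean of 70.6 FPKM, and Kcng2, a silent subunit that conducts only together with Kv2 pores, with 41.0 to 52.2 FPKM over all hearts and SDs of 5.63 among WT/TAC and 4.78 among KO/TAC hearts. Kcng2 stayed below Kcnj11 in every heart. The summed FPKM of all 60 genes was 672, 392 and 520 for WT/TAC and 502, 567 and 501 for KO/TAC, so the highest and the lowest heart were both WT/TAC.

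**Figure D1:**
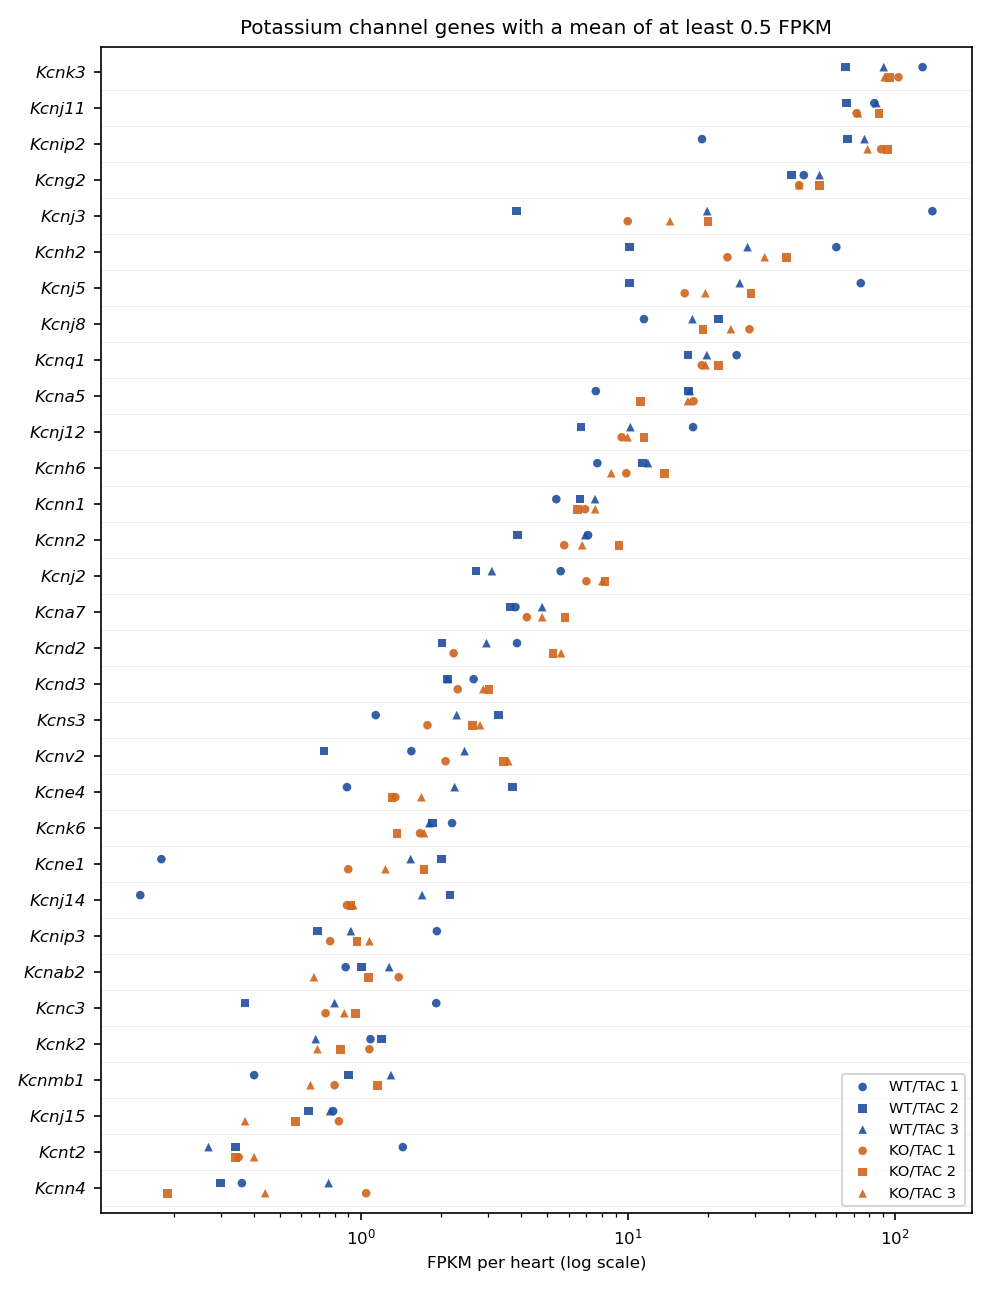
FPKM on a log axis of 32 of the 34 potassium channel genes averaging 0.5 FPKM or more, ordered by mean, with 1 point per heart (blue WT/TAC, orange KO/TAC, shape by replicate number). Most rows overlap between genotypes; Kcnj2 and Kcnip2 are rows in which all 3 KO/TAC points lie to the right of all WT/TAC points, and WT/TAC replicate 1 is far to the right for Kcnj3 and far to the left for Kcnip2.

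KO/TAC was compared with WT/TAC by limma on log2(FPKM + 0.5) over the 12520 genes that averaged 0.5 FPKM or more, which left 34 of the 60 channel genes in the test. A gene is said to have risen or fallen at an unadjusted p under 0.05 with a fitted fold of at least 1.2, the limits visible in the gene list of the study. Of the 34 genes, 2 rose in KO/TAC, Kcnj2 among them, and 0 fell. Over all genes tested 4.94% rose and 6.14% fell, so the share of channel genes that rose, 5.88%, is near the background. By limma 0 of the 34 had an adjusted p under 0.05 (Benjamini-Hochberg over all genes tested, where 2 genes or 0.016% did), while 2 had an unadjusted p under 0.05, and a gene-by-gene 2-sample test called the same genes higher and 0 lower. In whole tissue, more cells of a type and more RNA per cell cannot be told apart. The median log2 fold change of the 34 was 0.06, against 0.00 over all genes tested. Groups did not overlap in 5 of the 34 (14.7%, against 18.3% of all genes tested). In 4 the KO/TAC values were higher, Kcnj2 and Kcnip2 among them (11.8%, against 8.46% of all genes), and Kcnk6 was the 1 with lower values (2.94%, against 9.79%).

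The calls shifted with the libraries used, and without WT/TAC replicate 1 the log2 fold change had the opposite sign in 15 of the 34 genes. Without WT/TAC replicate 1 the same 2 genes rose (7.52% of all genes did) and Kcne4 and Kcnj14 fell (7.47% did). With log2 Myl7 as a covariate, 4 rose, Kcnj2, Kcnh2, Kcnn2 and Kcnv2 (4.24% of all genes), and 0 fell (5.59%). Among libraries in which Myl7 was under 1 FPKM, WT/TAC replicate 2 against KO/TAC replicates 1 and 3, 9 rose (6.18% of all genes) and 3 fell (6.13%), and these values rest on 1 WT/TAC heart. Kcnj2 is in each of these sets.

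**Figure D2:**
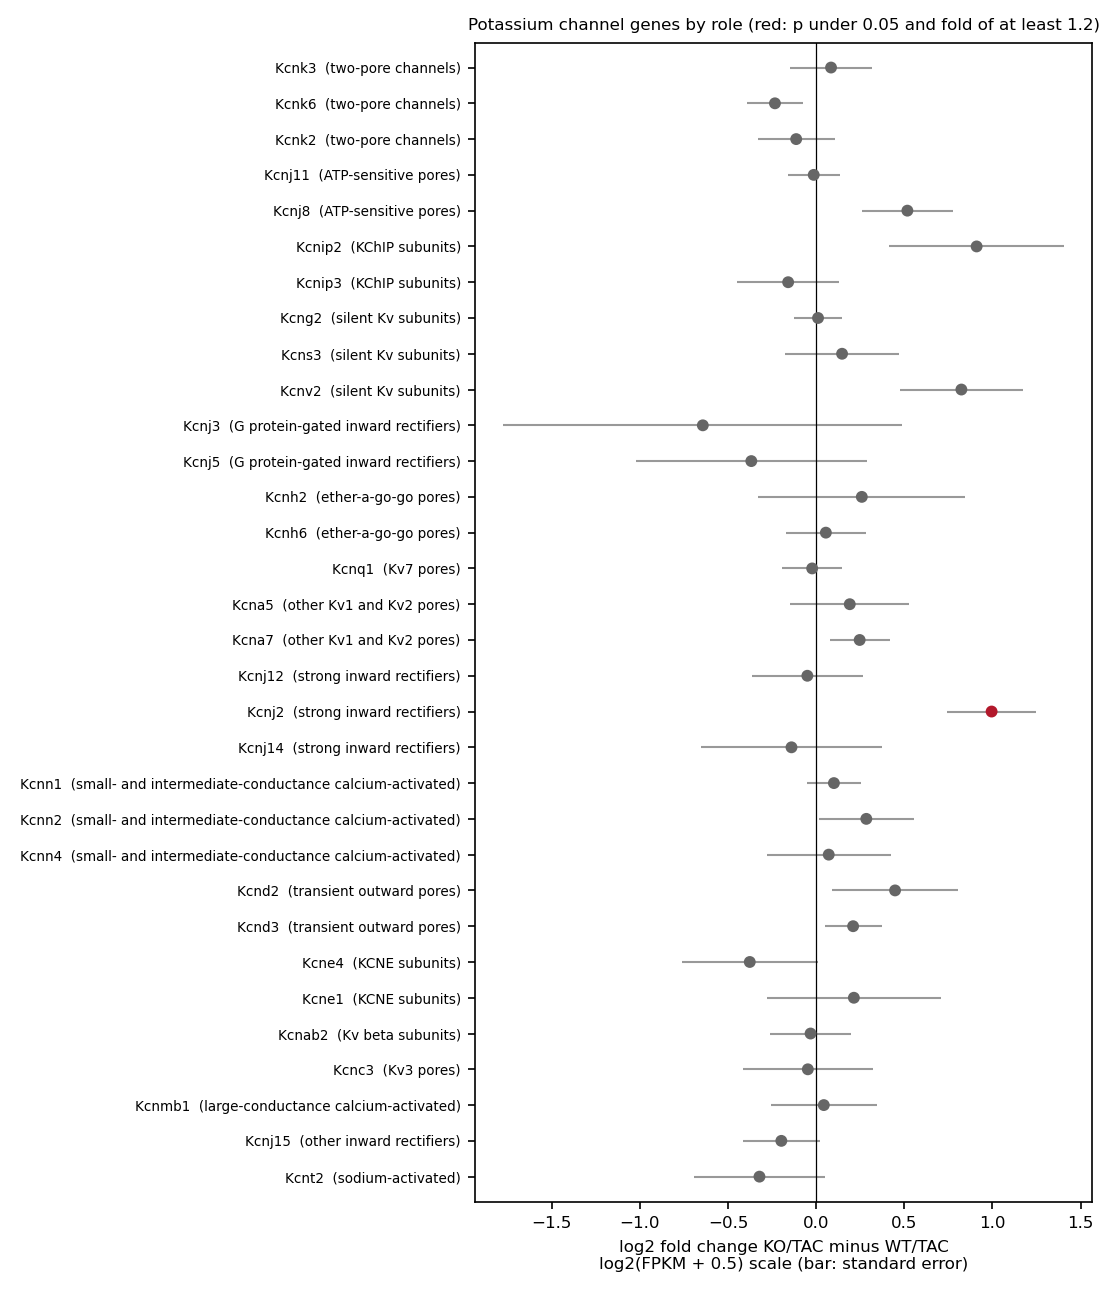
Log2 fold change of KO/TAC against WT/TAC with its standard error for 32 of the 34 genes tested, grouped by role, with Kcnj2, past the limits, in red. Kcnj2 lies at 0.996, and Kcnj3 (standard error 1.13) and Kcnj5 (0.656) have the widest bars.

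Among the strong inward rectifiers, which set the resting potential of ventricular muscle, Kcnj2 rose in KO/TAC. Kcnj2 (Entrez Gene 16518, on chromosome 11), whose mutation causes Andersen-Tawil syndrome in humans, was at 5.61, 2.70 and 3.10 FPKM in WT/TAC replicates 1 to 3, and at 7, 8.22 and 8.03 FPKM in KO/TAC replicates 1 to 3. All KO/TAC hearts lay above all WT/TAC hearts, and the highest WT/TAC value was that of replicate 1. The log2 fold change was 0.996 (standard error 0.251, unadjusted p = 0.00566, adjusted p = 0.278 by limma), and the ratio of means was 2.04. Without WT/TAC replicate 1 it was 1.28 (adjusted p = 0.0516 by limma), and with log2 Myl7 as a covariate 1.2. The summed level of 6 cardiomyocyte markers, of which 1 rose and 0 fell, was 25090 to 27963 FPKM for WT/TAC and 30450 to 31468 FPKM for KO/TAC, and that of 5 fibroblast markers, which all fell, was 339 to 575 FPKM against 249 to 293 FPKM. Their part in the Kcnj2 difference was not tested.

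The other strong inward rectifiers tested, Kcnj12 and Kcnj14, did not pass the limits. Kcnj12, which forms the same kind of channel and can assemble with Kcnj2, was at 17.5, 6.69 and 10.2 FPKM in WT/TAC and 9.48, 11.5 and 9.98 FPKM in KO/TAC, and all KO/TAC values lay inside the WT/TAC range (log2 fold change -0.05, standard error 0.317, and 0.30 without WT/TAC replicate 1, unadjusted p = 0.177 by limma). Kcnj14 was at 0.15, 2.16 and 1.70 FPKM in WT/TAC and at 0.89, 0.92 and 0.94 FPKM in KO/TAC. Its KO/TAC hearts were alike and lay between WT/TAC replicate 1 and the other WT/TAC hearts. Without that library Kcnj14 was lower in KO/TAC, with a log2 fold change of -0.77 (unadjusted p = 0.00329, adjusted p = 0.171 by limma). Kcnj4 averaged 0.448 FPKM and was too low for the test.

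Because Kcnj2 and Kcnj12 were read from the same library in each heart, their ratio does not depend on the scaling of that library. The ratio of Kcnj2 to Kcnj12 was 0.320, 0.404 and 0.303 in WT/TAC replicates 1 to 3 and 0.738, 0.716 and 0.805 in KO/TAC replicates 1 to 3, a mean of 0.342 ± 0.0538 (SD, n = 3) against 0.753 ± 0.0461 (SD, n = 3). The value of WT/TAC replicate 1 lay between those of replicates 2 and 3. Atrial Myl7 was also found in WT/TAC replicate 3 and KO/TAC replicate 2, and the part of atrial tissue in this ratio was not tested. Kcnj2 made up 19.9% to 24.0% of the summed FPKM of the strong inward rectifiers in WT/TAC and 39.1% to 41.8% in KO/TAC. The ratio was chosen after the values were seen and is given without a test. Other ratios between channel or partner genes were also computed. That of Abcc9, a partner gene described below, to Kcnj11 did not overlap either, at 0.0942 to 0.450 in WT/TAC and 0.559 to 0.677 in KO/TAC. The rest overlapped between groups.

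**Figure D3:**
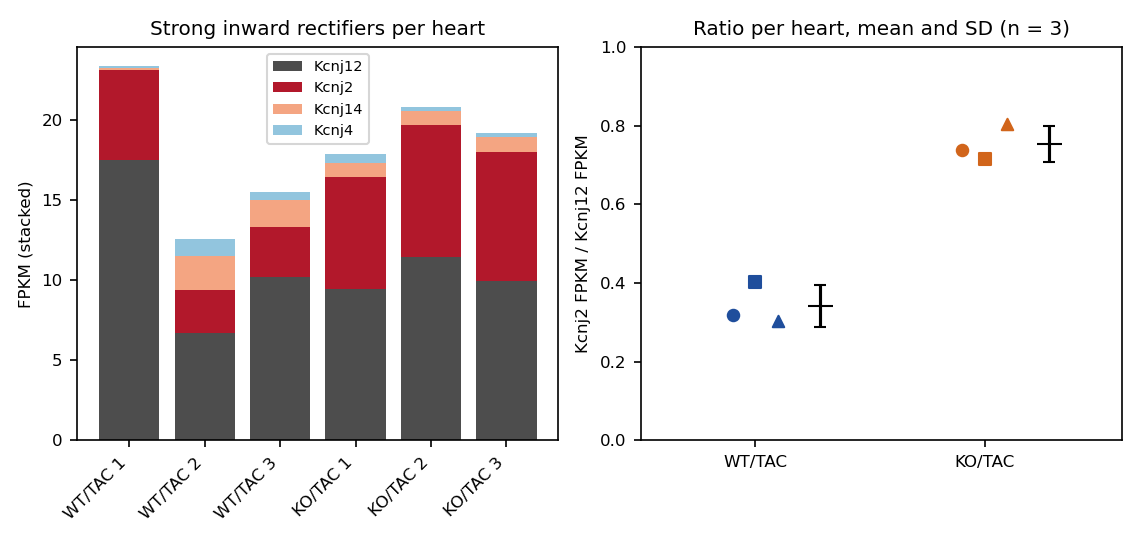
Left, FPKM of Kcnj12, Kcnj2, Kcnj14 and Kcnj4 stacked for each heart; right, the ratio of Kcnj2 to Kcnj12 in each heart (shape by replicate number) with the group mean and SD (n = 3). The total is highest in WT/TAC replicate 1, while the ratio is below 0.41 in each WT/TAC heart and above 0.71 in each KO/TAC heart.

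The G protein-gated inward rectifiers differed more between single hearts than between genotypes. Kcnj3 (GIRK1), which pairs with Kcnj5 to form the acetylcholine-activated channel of atrial and nodal muscle, was at 138, 3.83 and 19.8 FPKM in WT/TAC replicates 1 to 3, and at 9.99, 20.0 and 14.4 FPKM in KO/TAC replicates 1 to 3. WT/TAC held both the highest and the lowest heart. Kcnj5 (GIRK4) was at 74.4, 10.1 and 26.2 FPKM in WT/TAC and 16.3, 28.9 and 19.5 FPKM in KO/TAC, with the same hearts at the ends. Neither passed the limits, with log2 fold changes of -0.64 (standard error 1.13) for Kcnj3 and -0.37 (standard error 0.656) for Kcnj5. Without WT/TAC replicate 1 the values were 0.65 (standard error 0.635) and 0.35 (standard error 0.415), still short of the limits. WT/TAC replicate 2, KO/TAC replicate 1 and KO/TAC replicate 3, which all had Myl7 under 1 FPKM, had Kcnj3 at 3.83, 9.99 and 14.4 FPKM. Among these libraries the log2 fold change was 1.53 for Kcnj3 and 0.79 for Kcnj5. The first is the only WT/TAC heart of these, so genotype and single heart cannot be told apart there. The part of atrial tissue in the Kcnj3 values was not tested. Kcnj6, another member of this family, averaged 0.102 FPKM.

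Of the ATP-sensitive pores, which open when the cell runs short of ATP, Kcnj11 belongs to heart muscle and Kcnj8 to vascular muscle and pericytes. Kcnj8 was at 11.5, 21.9 and 17.4 FPKM in WT/TAC and 28.5, 19.1 and 24.3 FPKM in KO/TAC. The groups overlapped (log2 fold change 0.52, standard error 0.256, unadjusted p = 0.0843, adjusted p = 0.513 by limma), and WT/TAC replicate 1 was lowest. Leaving out WT/TAC replicate 1 gave 0.27 (unadjusted p = 0.208 by limma), and without WT/TAC replicate 2 it was 0.72, past the limits. The summed level of 8 smooth muscle and pericyte markers, of which 0 rose and 0 fell, was 142 to 346 FPKM for WT/TAC and 211 to 288 FPKM for KO/TAC, and their part in the Kcnj8 values was not tested. Members of that list did not order the hearts alike: Rgs5 was highest in KO/TAC replicate 3 at 113 FPKM, Acta2 in WT/TAC replicate 3 at 122 FPKM and Notch3 in WT/TAC replicate 2 at 10.9 FPKM. Kcnj11 averaged 78.1 ± 10.8 FPKM in WT/TAC against 77.1 ± 8.52 FPKM in KO/TAC (SD, n = 3), with a fitted log2 difference of -0.01 (standard error 0.147).

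Among the genes of the transient outward current, the KChIP subunit and the pores showed different patterns. Kcnip2, which brings Kv4 pores to the membrane, was at 18.9, 66.4 and 76.8 FPKM in WT/TAC and 88.6, 93.8 and 78.9 FPKM in KO/TAC. The KO/TAC hearts lay above all WT/TAC hearts, though only just above WT/TAC replicate 3, and WT/TAC replicate 1 was far below the rest. Kcnip2 did not pass the limits (log2 fold change 0.91, standard error 0.496, unadjusted p = 0.110, adjusted p = 0.552 by limma), nor without WT/TAC replicate 1, where the value was 0.28. The pore gene Kcnd2 was at 3.85, 2.02 and 2.96 FPKM in WT/TAC and 2.23, 5.25 and 5.63 FPKM in KO/TAC, with KO/TAC replicate 1 among the WT/TAC values. Its log2 fold change was 0.45 (standard error 0.356), and 0.82 without KO/TAC replicate 1, past the limits. Kcnd3, another Kv4 pore of the heart, averaged 2.30 ± 0.306 FPKM in WT/TAC against 2.74 ± 0.376 FPKM in KO/TAC (SD, n = 3). Kcna4, the pore of the slow transient current, averaged 0.433 FPKM with its highest value, 1.09 FPKM, in WT/TAC replicate 1.

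Kcna5, a Kv1 pore, carries part of the delayed current of mouse ventricle. It was at 7.59, 16.8 and 17.04 FPKM in WT/TAC and 17.6, 11.2 and 16.8 FPKM in KO/TAC, with the groups overlapping and WT/TAC replicate 1 lowest (log2 fold change 0.19, standard error 0.336). The direction turned without that library, at -0.18 (unadjusted p = 0.414 by limma), and with log2 Myl7 as a covariate, at -0.11. Of the silent subunits, Kcnv2, which assembles with Kv2 pores, was at 1.55, 0.73 and 2.45 FPKM in WT/TAC and 2.08, 3.43 and 3.57 FPKM in KO/TAC. The groups overlapped by 1 heart on each side, and at 0.82 (standard error 0.349, unadjusted p = 0.0510, adjusted p = 0.448 by limma) Kcnv2 lay just outside the limit on p.

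Kcnq1, the pore of the slow delayed rectifier, averaged 20.7 ± 4.45 FPKM in WT/TAC against 20.1 ± 1.53 FPKM in KO/TAC (SD, n = 3), with a fitted log2 difference of -0.02 (standard error 0.170). Kcne1, its auxiliary subunit, was at 0.18, 2.01 and 1.54 FPKM in WT/TAC and 0.90, 1.73 and 1.24 FPKM in KO/TAC. WT/TAC replicate 1 was lowest and the KO/TAC hearts lay between it and WT/TAC replicate 2. The log2 fold change was 0.21 (standard error 0.495) with that library and -0.36 without it. Kcne4, a subunit that inhibits several Kv pores, was at 0.89, 3.70 and 2.25 FPKM in WT/TAC and 1.35, 1.31 and 1.69 FPKM in KO/TAC. Without WT/TAC replicate 1 Kcne4 was lower in KO/TAC, with a log2 fold change of -0.81 (unadjusted p = 0.0104), whereas with it the value was -0.38 (standard error 0.387).

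Kcnh2 (ERG1), the pore of the rapid delayed rectifier and the main target of drugs that prolong the QT interval, was at 60.3, 10.1 and 28.1 FPKM in WT/TAC and 23.6, 39.3 and 32.5 FPKM in KO/TAC. As for Kcnj3 and Kcnj5, the highest heart was WT/TAC replicate 1 and the lowest WT/TAC replicate 2. The log2 fold change was 0.26 (standard error 0.588). Without WT/TAC replicate 1 it was 0.86 (unadjusted p = 0.0870 by limma), short of the limits, and without WT/TAC replicate 2 the direction turned, at -0.40. With log2 Myl7 as a covariate it was 0.92 (standard error 0.323, unadjusted p = 0.0294, adjusted p = 0.439 by limma), past the limits. Kcnh6, a related pore, ranged from 7.69 to 13.7 FPKM over the hearts with a log2 fold change of 0.05 (standard error 0.228), and of -0.13 without WT/TAC replicate 1.

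Calcium-activated, sodium-activated and tandem-pore genes gave no call among the 34 genes tested with all hearts. Kcnk3, the tandem-pore gene with the highest mean, had a log2 fold change of 0.08 (standard error 0.233). The value was 0.32 without WT/TAC replicate 1 and -0.15 without WT/TAC replicate 2. Among the libraries with Myl7 under 1 FPKM it was 0.57. Kcnn1 and Kcnn2, small-conductance channels opened by calcium, averaged 6.52 ± 1.07 and 5.96 ± 1.82 FPKM in WT/TAC against 6.98 ± 0.538 and 7.27 ± 1.80 FPKM in KO/TAC (SD, n = 3). Kcnn2 passed the limits with log2 Myl7 as a covariate, at 0.59, and among the libraries with Myl7 under 1 FPKM, and under no other alternative run. Kcnmb1, the smooth muscle subunit of the large-conductance channel, was at 0.867 ± 0.451 FPKM in WT/TAC against 0.870 ± 0.262 FPKM in KO/TAC (SD, n = 3). Kcnk6 was at 2.20, 1.86 and 1.81 FPKM in WT/TAC and 1.67, 1.37 and 1.73 FPKM in KO/TAC, without overlap but with a log2 fold change of only -0.23 (standard error 0.157). Kcnk2 (TREK-1), a stretch-sensitive channel, was at 0.990 ± 0.274 FPKM in WT/TAC against 0.870 ± 0.197 FPKM in KO/TAC (SD, n = 3). Kcnt2, opened by sodium, was at 1.44 FPKM in WT/TAC replicate 1 and 0.27 to 0.40 FPKM in the other hearts.

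The 26 genes below 0.5 FPKM were fitted only under a minimum mean of 0.1 FPKM, where 14510 genes were tested and 4.74% rose and 5.77% fell. There, 1 of the 26 passed in each direction. Kcnk1 was at 0.08, 0.02 and 0.26 FPKM in WT/TAC and 0.25, 0.40 and 0.55 FPKM in KO/TAC (fitted log2 fold change 0.54, unadjusted p = 0.0339, adjusted p = 0.439 by limma). Kcnn3 was at 0.29, 0.50 and 0.30 FPKM in WT/TAC and 0.09, 0.18 and 0.12 FPKM in KO/TAC (fitted log2 fold change -0.45, unadjusted p = 0.0246, adjusted p = 0.406 by limma). The values of Kcnk1 overlapped between the groups and those of Kcnn3 did not. At these levels the pseudocount of 0.5 is as large as most of the values or larger, so folds on this scale are understated. Kcnip1 and Kcnj6 were listed at 0 in WT/TAC replicate 1.

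The channel genes also differed between hearts of 1 genotype. Of the 34 genes tested, 10 were highest and 12 lowest in WT/TAC replicate 1, together 64.7% against 56.2% of all genes tested. WT/TAC replicate 2 was lowest in 15 (44.1%, against 16.7% of all genes), among them Kcnk3, Kcnj11, Kcng2, Kcnj3, Kcnh2, Kcnj5, Kcnq1, Kcnj12 and Kcnj2. The median SD of log2(FPKM + 0.5) between the WT/TAC hearts was 0.466 for the channel genes and 0.255 for all genes tested, and between the KO/TAC hearts 0.189 and 0.143. These WT/TAC hearts differed more among themselves in these genes than the KO/TAC hearts did, also for all genes tested. WT/TAC replicate 1 is among them, and its part in that spread was not tested.

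**Figure D4:**
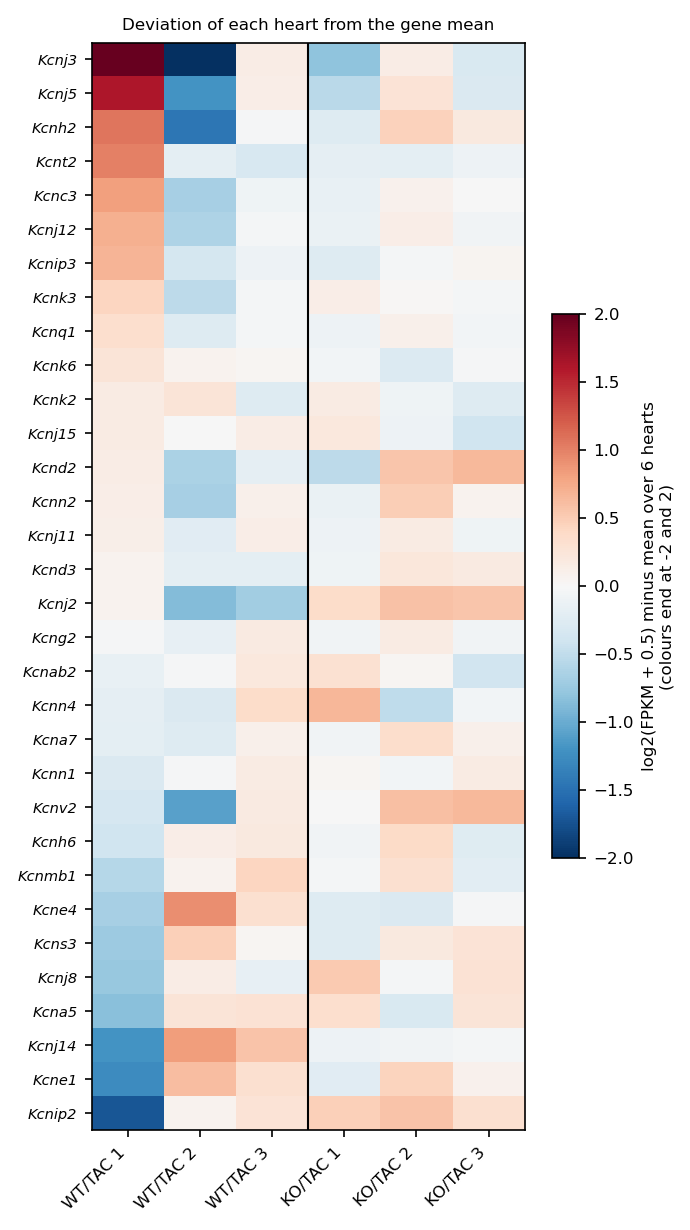
Deviation of log2(FPKM + 0.5) in each heart from the mean of the gene over the 6 hearts for 32 of the 34 genes tested, red above and blue below the mean, sorted by WT/TAC replicate 1. Kcnj3, Kcnj5 and Kcnh2 at the top are high in WT/TAC replicate 1 and low in WT/TAC replicate 2, Kcnip2, Kcne1 and Kcnj14 at the bottom are low in WT/TAC replicate 1, and the KO/TAC columns are paler.

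Relative to the mean of the other 5 hearts, WT/TAC replicate 1 had 10.1 times as much Kcnj3, 3.68 times as much Kcnj5, 2.26 times as much Kcnh2 and 1.83 times as much Kcnj12. The other hearts on average had 4.27 times as much Kcnip2, 8.24 times as much Kcne1, 8.81 times as much Kcnj14 and 2.09 times as much Kcna5 as that library. Kcnj11 (1.09 times) and Kcng2 (0.979 times) were close to the mean of the other hearts. Kcnj2, at 5.61 FPKM in that library, lay above the other WT/TAC hearts (2.70 and 3.10 FPKM) and below all KO/TAC hearts. These values describe 1 library and carry no test.

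Partner genes of the channels were read from a list of 31 genes, of which 27 were tested. Of these 1 rose and 1 fell, where 4.94% of all genes tested rose and 6.14% fell. The median log2 fold change of the partner genes was -0.03. Irx3, a transcription factor of the ventricular conduction system, rose from 1.18, 9.72 and 7.36 FPKM in WT/TAC to 15.3, 14.4 and 14.9 FPKM in KO/TAC (fitted log2 fold change 1.58, standard error 0.631, unadjusted p = 0.0413, adjusted p = 0.421 by limma). Its groups did not overlap, with WT/TAC replicate 1 lowest, and without that library the value was 0.78 (unadjusted p = 0.00135, adjusted p = 0.145 by limma), while with log2 Myl7 as a covariate it was 1.08 and short of the limits. Gnao1, a G protein alpha subunit that couples to muscarinic receptors, fell from 48.7, 20.8 and 27.2 FPKM in WT/TAC to 11.4, 13.4 and 9.77 FPKM in KO/TAC (fitted log2 fold change -1.37, standard error 0.305, unadjusted p = 0.00306, adjusted p = 0.255 by limma), and the value was -1.03 without WT/TAC replicate 1. Chrm2, the muscarinic receptor upstream of the channel of Kcnj3 and Kcnj5, did not pass, at 62.4, 11.1 and 14.7 FPKM in WT/TAC and 13.3, 21.1 and 22.02 FPKM in KO/TAC, with a log2 fold change of -0.24 that turned to 0.51 without WT/TAC replicate 1. Abcc9, the sulfonylurea receptor of the ATP-sensitive channel of ventricle and vessels, was at 7.87, 29.6 and 37.8 FPKM in WT/TAC and 48.6, 48.6 and 41.5 FPKM in KO/TAC, without overlap but short of the limits (log2 fold change 1.13, standard error 0.532, unadjusted p = 0.0724). Abcc9 passed the limits without WT/TAC replicate 1, at a smaller value, 0.46 (standard error 0.144, unadjusted p = 0.0180, adjusted p = 0.244 by limma), and it also passed among the libraries with Myl7 under 1 FPKM, at 0.59. Abcc8, the receptor found with Kcnj11 in atrial muscle of mice, was at 40.0 FPKM in WT/TAC replicate 1 and 8.30 to 12.5 FPKM in the other hearts.

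The bases deleted in KO/TAC lie at the 3′ end of miR-27b-3p, outside its seed, and the paper did not detect the miRNA in knockout tissues. This miRNA binds mRNAs mainly through the seed, bases 2 to 8, shown in capitals. The mature sequence of 21 bases is from RefSeq (chr13:63300760-63300780, plus strand, GRCm38.p6), and the site searched in the channel genes follows from it.
mmu-miR-27b-3p: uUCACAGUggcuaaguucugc
The complementary site of 7 bases, ACTGTGA, was looked for on the sense strand of 3′ UTRs from GENCODE M21 on GRCm38, taking the longest UTR a gene has. Of the 60 channel genes 12 held it (20.0%), and of the 34 tested 4 did (11.8%), against 17.3% of the 12161 tested genes searched. The tested genes with a site are Kcnj3, Kcne4, Kcne1 and Kcnk2, and the sites are shown, in capitals with 6 bases on either side, because they are the candidate pairing sites among the tested channels. None of these genes passed the limits with all hearts.
Kcnj3 (chr2:55597201-55597207, plus strand): ccatccACTGTGAatagag
Kcne4 (chr1:78819089-78819095, plus strand): tcattcACTGTGAggttct
Kcne1 (chr16:92348467-92348473, minus strand): tgaaagACTGTGAggggtg
Kcnk2 (chr1:189208582-189208588, minus strand): gggatcACTGTGAgttttg
Kcnk2 (chr1:189207964-189207970, minus strand): gtataaACTGTGAactgga
The median log2 fold change was -0.25 in these 4 genes and 0.08 in the 30 without a site. Kcnj2 did not hold the site in this UTR. A match is a description of letters, and its absence says nothing of sites in other transcripts.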

How the data were processed

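RNA of 3 WT/TAC and 3 KO/TAC hearts was sequenced by the authors with a KAPA stranded kit. The deposited values are FPKM to 2 decimals for 17570 Entrez Gene IDs, 1 file per heart. The submitters' processing notes name HISAT2 2.0.5 and StringTie 1.3.3. These notes list the builds hg38 and mm9 without a role, so which annotation the FPKM rest on is unclear and no coordinate was taken from them. Alignment settings and filters are not stated. Symbols were matched by Entrez Gene ID to RefSeq (GRCm38.p6), and 17441 IDs matched.

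The fit was made on log2(FPKM + 0.5) for genes averaging 0.5 FPKM or more, in R 4.3.3 with limma 3.58.1 (lmFit, eBayes with a variance trend). All p are two-sided, and adjusted p are by Benjamini-Hochberg over all 12520 genes. Ratios are of mean FPKM. Tables and plots used Python 3.11.15, pandas 2.3.3, numpy 2.4.6 and matplotlib 3.10.9. The script was tested on simulated data. Alternatives changed the pseudocount, filter, scaling, variance model, weights, block, covariate, test and libraries. The members and lists were chosen with earlier results of these data known. Named genes are those past the limits, Kcnj2 and Kcnj3, the 5 with the highest means, in each role group the most abundant and the one with the smallest p, and the partners past the limits or with the 2 smallest p; others named were chosen after their values were seen. No count-based test was run, because FPKM are not counts. Some members are counted but not reported here by name.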

Additional observations from a re-analysis of the deposited data

How the results depend on the processing

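With all hearts 2 channel genes were higher and 0 lower in KO/TAC. A pseudocount of 1, rescaling by median ratios and quantile normalization gave 3 higher, with Kcnv2 added. Over all genes these settings gave 617, 654 and 706 higher in turn, against 618 in the main fit. Higher were 1 with a minimum mean of 5 FPKM, where only 16 were tested, 4 with log2 Myl7 as a covariate (Kcnj2, Kcnh2, Kcnn2 and Kcnv2), and 0 at an adjusted p of 0.05 or 0.1. Lower was 1, and higher 3, with a minimum mean of 0.1 FPKM or no filter (Kcnn3 and Kcnk1, newly tested there). With a library left out, 2 to 4 were higher and 0 to 2 lower; 4 were higher without WT/TAC replicate 3 (Kcnj2, Kcnip2 and Kcnv2 among them), 3 when WT/TAC replicate 2 (with Kcnj8) or KO/TAC replicate 1 (Kcnj2, Kcnd2 and Kcnv2) was left out, and 2 lower without WT/TAC replicate 1 (Kcne4 and Kcnj14). An alternative chosen after seeing the data kept those libraries whose Myl7 was under 1 FPKM, WT/TAC replicate 2 against KO/TAC replicates 1 and 3, with the lone WT/TAC heart assumed to vary like the others. There, 9 were higher and 3 lower, and Kcnj3 (1.53) and Kcnj12 (0.51) reversed and passed the limits. The cause was not tested. Kcnj2 passed the unadjusted limits under every alternative run, at 0.81 to 1.32. Of 514 values of the 25 genes named by the rule, 493 stayed on their side of the limits, 17 newly passed, 2 no longer did and 2 reversed. The labels do not say whether the replicate numbers pair animals. Deviations of hearts with the same number from their group means correlated at -0.29, -0.57 and -0.35. With only 3 hearts per group these correlations cannot decide it. The fit with the replicate block gave 2 higher and 0 lower. Over all genes it gave 355 higher and 524 lower, against 618 and 769 without the block. Over all genes, leaving out KO/TAC replicates 1, 2 and 3 in turn gave 366, 396 and 262 higher and 595, 502 and 369 lower, and leaving out WT/TAC replicates 1, 2 and 3 gave 941, 790 and 648 higher and 935, 1171 and 656 lower. Values are printed to 2 decimals, which limits genes of low level.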
